A study of Homo sapiens with 4 samples.

Results

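The genes of the integrated stress response did not move as a block when PRCC-TFE3 was induced in HK-2 cells. DDIT3, which encodes the transcription factor CHOP, rose 2.48-fold, and GDF15, a secreted stress cytokine, rose 1.77-fold. TRIB3, DDIT4 and PPP1R15A rose by smaller amounts, and ATF4, the central transcription factor of the response, was 0.921 times its level without doxycycline. ATF5, SESN2, CHAC1 and ASNS did not pass the test. The 10 genes were chosen by symbol as ATF4 and well-known genes of its response (ATF4, ATF5, DDIT3, DDIT4, TRIB3, SESN2, GDF15, CHAC1, ASNS and PPP1R15A), out of 34080 genes with summed transcripts. The rule that lists them uses no measured value, but they were chosen with earlier results of these data known. Their counts beside the shares of all genes are therefore a description only.

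HK-2 is a human proximal tubule cell line, and the cells used here carry a doxycycline-dependent HA-tagged PRCC-TFE3, a fusion transcription factor found in TFE3-rearranged renal cell carcinoma. The Doxy(+) group (n = 2 libraries) received 0.2 microg/ml doxycycline for 24 h, and the Doxy(-) group (n = 2 libraries) consisted of the same inducible cells without the drug. Polyadenylated RNA was sequenced after a TruSeq Stranded mRNA preparation. Cells without the transgene under doxycycline were not analysed here, so effects of the drug and of the fusion protein cannot be told apart. Both groups share the transgene and any expression it has without the drug. Whether the line is 1 clone, and whether the 2 libraries of a group came from separate cultures, is not given in the sources used here, so the p-values measure the spread between these libraries only.

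Total estimated counts ranged from 14042545 to 16618401 per library, of which 9.66% to 9.89% fell on transcript identifiers with no match in the annotation. TFE3 was at 66.87 and 69.03 CPM (counts scaled to a common library size) without doxycycline and at 367.2 and 321.7 CPM with it (log2 fold change 2.34, edgeR adjusted p = 4.78e-05, SE 0.072). The rise was assigned to TFE3-204 (338 and 333 estimated counts against 2921 and 2531) and TFE3-203 (54.3 and 69.8 against 1237 and 1240). The annotation lists TFE3-204 under nonsense-mediated decay and TFE3-203 as without a defined coding sequence. The main form TFE3-201 had 464 and 604 against 551 and 534. An unmatched identifier with the same length and counts as TFE3-203 was left out of the TFE3 sum. PRCC, which is also part of the fusion, had a log2 fold change of 0.15 (edgeR adjusted p = 0.413, SE 0.112). KRT8, KRT18, KRT19, EPCAM, PAX8 and GGT1 were expressed in every library. The proximal tubule genes LRP2 and AQP1 were at or near 0 and CUBN was under 1 CPM, so the labelled kidney identity rests on the former 6 genes. The summed renal and epithelial list was at 2025 and 2016 CPM in the uninduced libraries and 1772 and 1806 CPM in the induced ones. Among markers of other cells, the 3 endothelial genes summed to at most 1.05 CPM and CD3E was at 0. COL1A1 was at 22.3 and 20.2 CPM in the uninduced libraries and 16.7 and 15.5 CPM in the induced ones, and CD68, which is also a lysosomal gene of many cells, was at 144 and 149 CPM against 190 and 189 CPM. The part of these shifts in the results below was not tested, and in bulk RNA fewer cells of a type cannot be told apart from less RNA per cell.

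The integrated stress response starts when a kinase of the eIF2 family (PERK, GCN2, PKR or HRI) phosphorylates the translation factor eIF2. Most translation then falls, while ATF4 mRNA, whose upstream reading frames hold translation back at rest, is translated more. ATF4 activates genes of amino acid supply and redox balance together with CHOP and TRIB3, and PPP1R15A later brings a phosphatase to eIF2 and closes the loop. Much of this control acts on translation, so RNA levels show only a part of it.

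Promoter letters of the members are shown because they can be set beside the expression values. All 10 members matched windows of 300 bases (250 before to 50 after a start site, RefSeq, GRCh38.p14). The search covered the C/EBP-ATF response element (CARE, TGATGNAAN), the E-box CACGTG read by TFE3 and its relatives, the longer M-box TCACGTGA, which contains an E-box, and the cAMP response element (CRE, TGACGTCA), on both strands. The CRE was added after the sequences had been seen. Each stretch is written 5′ to 3′ on the strand of its gene, with the match in capitals.
ASNS, CARE, chr7:97872458-97872486, minus strand: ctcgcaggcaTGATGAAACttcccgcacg
CHAC1, CARE on the opposite strand, chr15:40953251-40953279, plus strand: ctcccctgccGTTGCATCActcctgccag
ATF4, E-box, chr22:39520467-39520492, plus strand: aggagacggtCACGTGgtcgcggcgg
PPP1R15A, CRE, chr19:48872353-48872380, plus strand: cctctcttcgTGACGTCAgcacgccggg
DDIT3, 100 bases ending 20 bases before a start site, chr12:57520535-57520634, minus strand: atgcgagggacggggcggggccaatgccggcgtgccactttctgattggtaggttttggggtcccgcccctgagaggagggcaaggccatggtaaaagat
The match starts 68 bases before the start site in ASNS, 210 bases before it in CHAC1 and 58 bases before it in PPP1R15A, and 82 or 85 bases before the 2 starts of ATF4. In GENCODE 44 these 4 stretches also overlap, in whole or in part, an exon with untranslated sequence of some transcripts of the gene. These were 3 of 17 for ASNS, 1 of 3 for CHAC1, 1 of 11 for ATF4 and 1 of 5 for PPP1R15A. The CARE was held by 2 of 10 members and by 4.45% of all 27305 genes with a window, the E-box by 1 member and 8.77% of genes, and the CRE by 1 member and 2.25% of genes. The M-box, present in 1.18% of genes, was in none of the members' windows. DDIT3, shown as the member with the largest change, held none of the 4 motifs in these windows. Bases more than 250 before a start site and other stress elements were not searched, so this does not show that DDIT3 lacks such elements. Both members with a CARE match, ASNS and CHAC1, were among the 4 that did not pass the test, and a match describes letters, not a site in use.

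Of the 10 members, 5 were higher and 1 was lower in Doxy(+) at an adjusted p under 0.05 (edgeR quasi-likelihood test, Benjamini-Hochberg over 13569 genes). The corresponding shares of all genes tested were 9.76% higher and 9.53% lower. With the study's second limit, an absolute log2 fold change above 1, DDIT3 alone remained as higher (1.5% of all genes) and no member as lower (0.479% of all genes). All 10 members passed the filter on low counts. Their median log2 fold change was 0.13, beside 0.001 over all genes tested, with 6 members above 0 and 4 below. On log2(TPM + 0.1), where TPM is the deposited length-scaled abundance summed per gene, the median was 0.22.

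**Figure D1:**
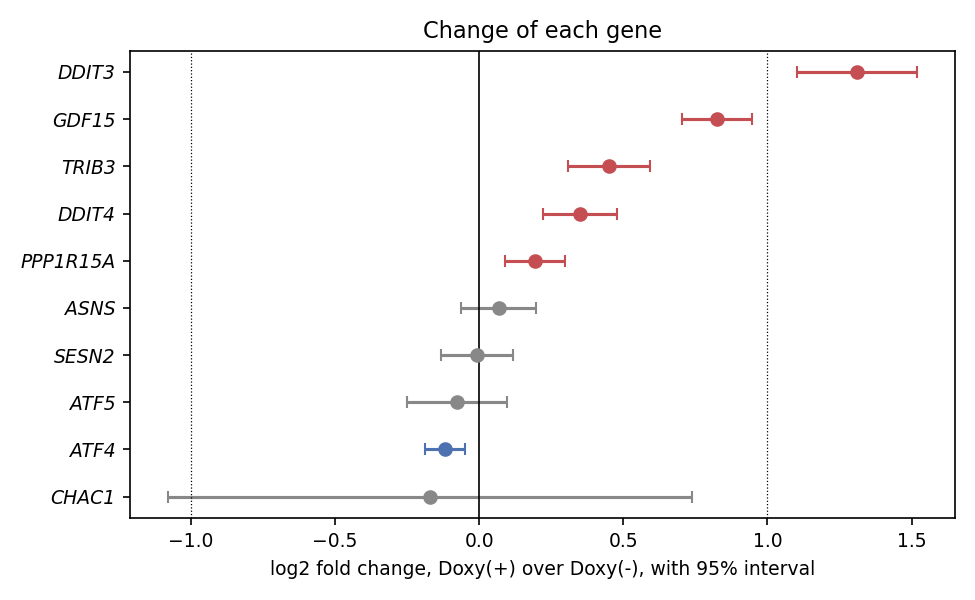
Log2 fold change of each gene, Doxy(+) over Doxy(-) (horizontal axis), with 95% intervals from the edgeR fit over 2 libraries a group; red and blue mark genes higher and lower at an adjusted p under 0.05, grey the others, and dotted lines the limits at 1 and -1. DDIT3 lies at 1.31 with its whole interval above 1, GDF15 at 0.83, and the interval of CHAC1 runs from -1.08 to 0.74.

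ATF4 (chr22:39519695-39522683, plus strand, hg38) was at 472.4 and 472.5 CPM in the uninduced libraries and 437.3 and 432.8 CPM in the induced ones. Both induced libraries lay below both uninduced ones. The log2 fold change was -0.12 (edgeR adjusted p = 0.0347, 95% interval -0.19 to -0.05, SE 0.0284). This small decrease passed under 7 of 16 alternatives and was below 0 in all 16; leaving out Doxy(+) 1 or Doxy(+) 2 gave edgeR adjusted p = 0.183 and 0.233, and log2(TPM + 1) put it at -0.07 (limma adjusted p = 0.608). A single transcript, ATF4-202, carried 97.2% to 97.6% of the gene's counts in every library. The 4 annotated pseudogenes of ATF4 held at most 3.6 counts each. How many reads these copies share with ATF4 was not tested.

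ATF5 (chr19:49928702-49933935, plus strand), a relative of ATF4 that is also controlled through upstream reading frames, was at 49.86 and 55.97 CPM in the uninduced libraries and 49.60 and 50.76 CPM in the induced ones. The groups overlapped, and the log2 fold change of -0.08 (SE 0.0715, 95% interval -0.25 to 0.10) had an edgeR adjusted p of 0.510. ATF5 shares exon bases with IL4I1 and NUP62 on the other strand. IL4I1 had a log2 fold change of -0.19 (edgeR adjusted p = 0.397) and NUP62 of -0.28 (edgeR adjusted p = 0.067), and whether the counting used strand is not given in the sources used here.

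DDIT3 (chr12:57516588-57521737, minus strand) was at 31.68 and 26.64 CPM in the uninduced libraries and 72.52 and 71.89 CPM in the induced ones. The 2 induced libraries were nearly equal and stood well above both uninduced ones, with means of 29.16 ± 3.56 and 72.20 ± 0.448 CPM (SD, n = 2). The log2 fold change of 1.31 (edgeR adjusted p = 0.000418, 95% interval 1.10 to 1.52, SE 0.0855) ranked 190 among 13569 genes from the highest. Across the alternatives the value lay between 1.19 and 1.43. The call was kept in 14 of 16 and missed with limma without a trend on log2(TPM + 1), adjusted p = 0.0518, and on log2(TPM + 0.1), adjusted p = 0.0742.

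Most of the counts behind the rise of DDIT3 were assigned to its main transcript. DDIT3-201, the MANE Select form, had 317 and 195 estimated counts in Doxy(-) and 628 and 656 in Doxy(+). DDIT3-205 had 67.1 and 109 estimated counts against 168 and 144. DDIT3-202 had 1.75 and 82.9 against 135 and 120. These 3 were higher in both induced libraries. DDIT3-204 had 22.2 and 4.28 estimated counts in Doxy(-) against 1.77 and 44.1 in Doxy(+), with overlap, and DDIT3-203 was at 0 throughout. The shares of the forms differed between the uninduced libraries, with DDIT3-201 at 77.7% in one and 49.9% in the other. These shares come from dividing reads that several forms have in common, so single forms carry no test. DDIT3 also shares exon bases with MARS1 and MBD6 on the other strand. MARS1 was lower (log2 fold change -0.19, edgeR adjusted p = 0.0205) and MBD6 had 0.16 (edgeR adjusted p = 0.216). In estimated counts, MARS1 went from 3341.6 and 3752.5 in Doxy(-) to 2837.7 and 3103.8 in Doxy(+). DDIT3 went from 408.4 and 391.5 to 933.7 and 965.2. How many reads these genes share was not tested, and whether the counting used strand is not given in the sources used here.

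TRIB3 (chr20:362835-397559, plus strand), a pseudokinase induced by ATF4 and CHOP that holds ATF4 activity back, was at 180.5 and 160.5 CPM in the uninduced libraries and 233.5 and 232.0 CPM in the induced ones. The groups did not overlap, and the spread was wider without the drug. The log2 fold change was 0.45 (edgeR adjusted p = 0.00449, 95% interval 0.31 to 0.59, SE 0.0587). TRIB3-201 carried nearly all of its counts. Of its paralogs, TRIB1 fell from 64.00 to 45.23 CPM (log2 fold change -0.50, edgeR adjusted p = 0.00217, SE 0.0532), and TRIB2, with group means of 1.72 and 2.62 CPM, had 0.61 and did not pass (edgeR adjusted p = 0.206, SE 0.293).

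PPP1R15A (chr19:48872212-48876059, plus strand), the stress-induced subunit that directs protein phosphatase 1 to eIF2, was at 158.5 and 162.6 CPM in the uninduced libraries and 188.6 and 178.6 CPM in the induced ones. Both induced libraries were higher, by a log2 fold change of 0.19 (edgeR adjusted p = 0.0281, 95% interval 0.09 to 0.30, SE 0.0431). The call rested on every library but Doxy(-) 2. Without Doxy(-) 1 the log2 fold change was 0.17 (edgeR adjusted p = 0.0605), without Doxy(+) 1 it was 0.15 (0.197 by the same test) and without Doxy(+) 2 it was 0.23 (0.0666). PPP1R15B, the constitutive subunit of the same phosphatase, had a log2 fold change of -0.06 (SE 0.0373) and did not pass (a gene outside the naming rule, chosen after its value was seen).

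**Figure D2:**
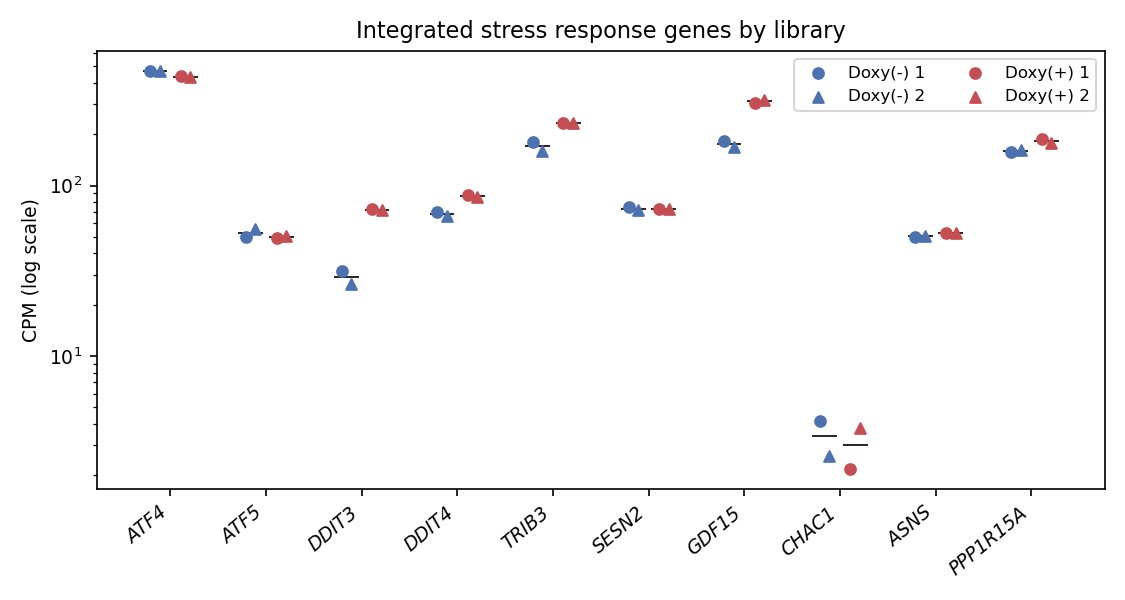
CPM of each gene in the 4 libraries (vertical axis, log scale); blue marks Doxy(-), red Doxy(+), circles replicate 1, triangles replicate 2, and the short lines group means. DDIT3 rises from a mean of 29.16 to 72.20 CPM and GDF15 from 176.2 to 312.0 CPM, while ATF4 falls from 472.4 to 435.0 CPM and the groups of CHAC1, ATF5 and SESN2 overlap.

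GDF15 (chr19:18374731-18389176, plus strand), a secreted member of the TGF-beta family used as a readout of mitochondrial and metabolic stress, was at 183.4 and 169.0 CPM in the uninduced libraries and 304.8 and 319.2 CPM in the induced ones. The group means of 176.2 ± 10.2 and 312.0 ± 10.2 CPM (SD, n = 2) lay far apart beside their spread. The log2 fold change was 0.83 (edgeR adjusted p = 0.000333, 95% interval 0.70 to 0.95, SE 0.0502), below the limit of 1 with its whole interval. GDF15-201, its main transcript, had 2155 and 2259 estimated counts against 3512 and 3808. The value stayed between 0.77 and 0.88 under the alternatives.

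DDIT4 (chr10:72273919-72276036, plus strand), an inhibitor of mTORC1 signalling, was at 69.66 and 66.34 CPM in the uninduced libraries and 87.92 and 85.28 CPM in the induced ones. The groups were apart, with a log2 fold change of 0.35 (edgeR adjusted p = 0.00721, 95% interval 0.22 to 0.48, SE 0.0528). Without Doxy(+) 1 the log2 fold change was 0.33 (edgeR adjusted p = 0.0631). SESN2 (chr1:28259518-28282491, plus strand), a leucine sensor that also restrains mTORC1, was at 74.63 and 71.65 CPM in the uninduced libraries and 72.62 and 72.84 CPM in the induced ones. Both induced values lay between the uninduced ones. Its log2 fold change was -0.008 (95% interval -0.13 to 0.12, edgeR adjusted p = 0.938), so a change of the size seen for DDIT4 lies outside its interval. The paralog SESN1 had a log2 fold change of 0.22 (edgeR adjusted p = 0.262, SE 0.121), and SESN3 and DDIT4L were under 1 CPM and not tested.

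ASNS (chr7:97851677-97872542, minus strand), the asparagine synthetase and a classical amino acid response gene, was at 50.04 and 50.83 CPM in the uninduced libraries and 52.66 and 53.03 CPM in the induced ones. The induced libraries were both higher, but the log2 fold change of 0.07 (SE 0.0529, 95% interval -0.06 to 0.20) did not pass (edgeR adjusted p = 0.435). In TPM the levels were 42.33 and 43.76 against 50.07 and 49.98. The difference was thus larger per transcript length, up to 0.22 on the log2 scale, and did not pass there either. Its counts were divided mainly between ASNS-202 and the shorter ASNS-214. CHAC1 (chr15:40952962-40956512, plus strand), which degrades glutathione and is usually among the strongest ATF4 targets, was the scarcest member at 4.17 and 2.60 CPM in Doxy(-) and 2.18 and 3.81 CPM in Doxy(+). The groups overlapped, and the log2 fold change of -0.17 had a 95% interval from -1.08 to 0.74 (edgeR adjusted p = 0.793). That interval leaves out a log2 fold change of 1 but holds one of -1, so neither a decrease of that size nor smaller changes in either direction could be told from no change. The sign also turned to 0.21 without Doxy(-) 1 and to 0.17 without Doxy(+) 1. CHAC2, its paralog, had a log2 fold change of 0.23 (edgeR adjusted p = 0.378, SE 0.16).

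The libraries of the groups did not overlap for 7 members: DDIT3, GDF15, TRIB3, DDIT4, PPP1R15A and ASNS were higher, and ATF4 was lower. Of all genes tested, 31.1% did not overlap with Doxy(+) higher and 30.0% with Doxy(+) lower, so with 2 libraries a group such a separation is common.

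Per transcript length, ATF4 was the most abundant member in both groups, at a mean of 506.7 ± 2.26 TPM in Doxy(-) and 481.3 ± 4.86 TPM in Doxy(+) (SD, n = 2). In Doxy(-) the order went on with GDF15 (239.1 TPM), TRIB3 (104.2 TPM) and PPP1R15A (102.2 TPM), DDIT4 (60.32 TPM), DDIT3 (50.97 TPM), ASNS (43.05 TPM) and ATF5 (41.71 TPM), SESN2 (31.15 TPM) and CHAC1 (6.36 TPM). The libraries of TRIB3 and PPP1R15A overlapped, as did those of ASNS and ATF5, so their order within each pair is not resolved. In Doxy(+) GDF15 stood at 439.6 ± 14.7 TPM, below ATF4 with no overlap. DDIT3, at 130.9 ± 1.69 TPM, lay above DDIT4 (79.33 TPM) and PPP1R15A (119.9 TPM) and below TRIB3 (145.2 TPM), again with no overlap.

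**Figure D3:**
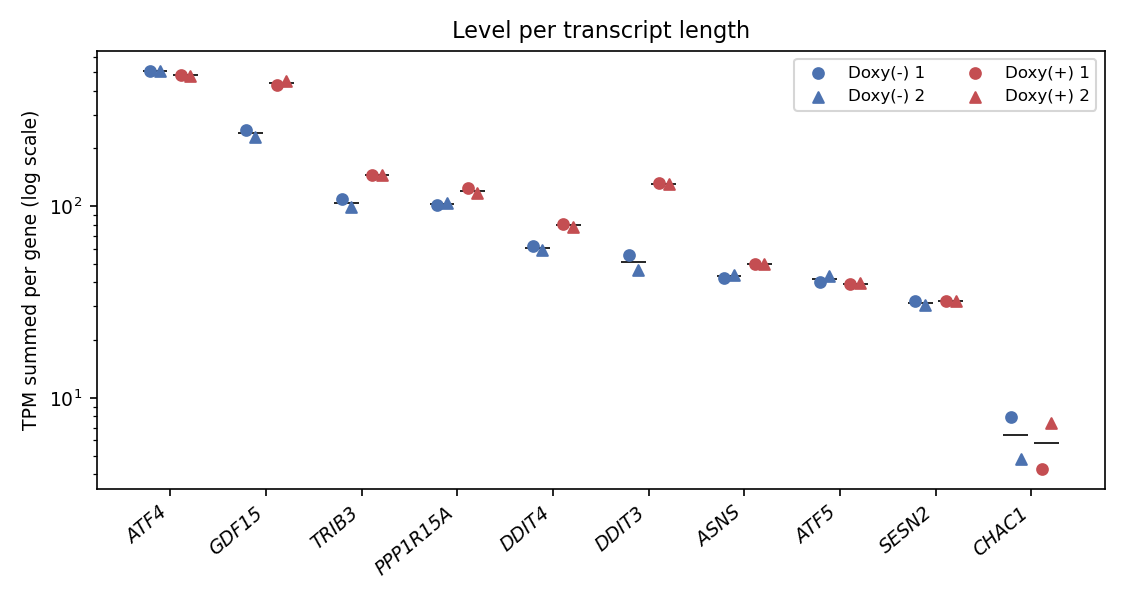
TPM summed per gene in the 4 libraries (vertical axis, log scale), genes ordered by their Doxy(-) mean; blue marks Doxy(-), red Doxy(+), and short lines group means. ATF4 stays highest near 500 TPM in both groups, GDF15 comes up to 439.6 TPM and DDIT3 moves from 50.97 to 130.9 TPM, above DDIT4.

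For the machinery upstream of ATF4, the calls were near the shares over all genes (9.76% higher, 9.53% lower). Of 21 genes for the eIF2 kinases, their regulators, eIF2, eIF2B and the eIF2 phosphatase, 1 was higher and 1 was lower, and the median log2 fold change was -0.04. GCN1, the partner that activates GCN2, was lower (-0.18, edgeR adjusted p = 0.00894, SE 0.0291), and DNAJC3, an inhibitor of the kinases, was higher (0.33, edgeR adjusted p = 0.0138, SE 0.0601). None of the 4 kinases passed: EIF2AK1 (HRI) had a log2 fold change of -0.12 (edgeR adjusted p = 0.138), EIF2AK2 (PKR) of 0.07 (0.48), EIF2AK3 (PERK) of -0.35 (0.142) and EIF2AK4 (GCN2) of -0.01 (0.91). OMA1, a mitochondrial protease that can signal to HRI, had 0.39 (edgeR adjusted p = 0.115, SE 0.142). These are RNA levels, and phosphorylation of eIF2 was not measured here.

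Among 10 bZIP relatives and partners of ATF4, 2 were higher and 1 was lower (median log2 fold change 0.04). The shares over all genes tested were 9.76% and 9.53%. ATF3, a stress factor downstream of ATF4, was at 33.20 and 34.43 CPM in the uninduced libraries and 23.69 and 25.17 CPM in the induced ones, and fell (log2 fold change -0.47, edgeR adjusted p = 0.00825, SE 0.0735). ATF3 thus moved in the direction opposite to DDIT3. CEBPB, a dimer partner of both ATF4 and CHOP, rose from 45.40 to 71.99 CPM (0.67, edgeR adjusted p = 0.0158, SE 0.126), and JDP2, a repressor that binds the same family, rose by 0.45 (edgeR adjusted p = 0.016, SE 0.0845).

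Genes of amino acid metabolism that ATF4 is known to activate did not rise as a group. Of 12 serine, folate, proline and transsulfuration enzymes, 1 was higher and 3 were lower (median -0.06), beside 9.76% and 9.53% of all genes tested. PYCR1, which makes proline, fell from 103.9 to 72.31 CPM (-0.52, edgeR adjusted p = 0.00256, SE 0.058). MTHFD1L, a mitochondrial folate enzyme, fell by 0.45 on the log2 scale (edgeR adjusted p = 0.00505), and ALDH18A1, the first enzyme of proline synthesis, by 0.15 (edgeR adjusted p = 0.0346). The call of ALDH18A1 was kept under only 7 of 16 alternatives. CTH of the cysteine pathway was the gene that rose, as chosen after its value was seen (0.38, edgeR adjusted p = 0.0479).

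Of 8 amino acid transporters listed as ATF4 targets, 1 was higher and 3 were lower (median -0.14). Among all genes tested, 9.76% were higher and 9.53% lower. SLC7A11, the cystine transporter, was at 29.25 and 30.39 CPM in the uninduced libraries and 22.56 and 19.87 CPM in the induced ones. Both induced values were lower (-0.49, edgeR adjusted p = 0.0144, SE 0.0902), and in TPM the difference was larger and did not pass (-1.02 on log2(TPM + 0.1), limma adjusted p = 0.133). With length-scaled counts it was -1.09 and passed (edgeR adjusted p = 0.0166). SLC7A1, a cationic amino acid transporter, fell by 0.17 (edgeR adjusted p = 0.0237) and SLC1A4, a neutral one, by 0.23 (edgeR adjusted p = 0.031). SLC3A2, the heavy chain that pairs with SLC7A11, was the gene that rose, as chosen after its value was seen (0.33, edgeR adjusted p = 0.0355).

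The tRNA synthetases were mixed, and the shares to set beside their counts are 9.76% higher and 9.53% lower over all genes. Of 14 genes often listed as ATF4 targets (13 synthetases and the tRNA exporter XPOT), 3 were higher and 1 was lower, with a median of 0.02. AARS1, the alanine enzyme, rose from 191.3 to 252.7 CPM (0.40, edgeR adjusted p = 0.00102, SE 0.0344), and XPOT rose by 0.21 (edgeR adjusted p = 0.0071). MARS1, the methionine enzyme, fell by 0.19 (edgeR adjusted p = 0.0205). Of 7 other cytosolic synthetases, none was higher and 1 was lower (median -0.11). That was KARS1, the lysine enzyme (-0.25, edgeR adjusted p = 0.00737, SE 0.0373). FARSB had -0.67 (edgeR adjusted p = 0.0563, SE 0.187) and QARS1 -0.10 (edgeR adjusted p = 0.137).

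Other genes listed as ATF4 or CHOP targets held some of the larger rises. Of 16 such genes 13 could be tested, of which 5 were higher and 1 was lower (median 0.05), and 2 passed both limits. Over all genes tested, 9.76% were higher, 9.53% were lower and 1.5% were higher past both limits. NUPR1, a small stress-induced chromatin protein, went from 9.15 and 9.13 CPM to 20.91 and 18.55 CPM (1.11, edgeR adjusted p = 0.00181, SE 0.112). KLHL24, an adaptor of a ubiquitin ligase, went from 56.37 and 56.45 CPM to 118.2 and 113.5 CPM (1.04, edgeR adjusted p = 0.000182, SE 0.0495). Both had no overlap between the groups. VEGFA, the angiogenic factor, fell from 49.71 to 34.24 CPM (-0.54, edgeR adjusted p = 0.0028, SE 0.0615). FGF21 was at 0 in every library, which at a floor of 3 counts allows up to 0.204 to 0.233 CPM (counting error only).

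**Figure D4:**
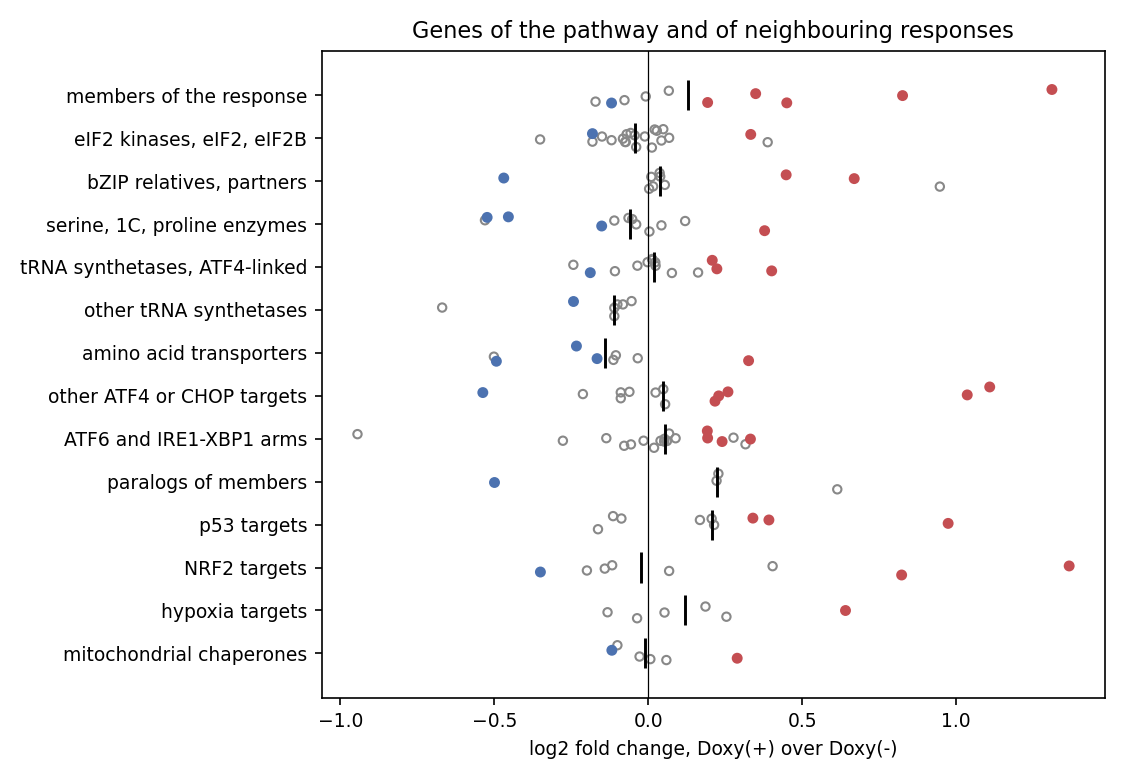
Log2 fold change of each tested gene (horizontal axis, Doxy(+) over Doxy(-)) in the 10 members and 13 lists; red and blue points were higher and lower at an adjusted p under 0.05, open points did not pass, and the black bars are list medians. Every list but the other tRNA synthetases, whose 7 genes all lie below 0, has points on both sides of 0, and the amino acid transporters have the lowest median, -0.14.

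The other arms of the unfolded protein response were looked at because CHOP can also be raised through them. Of 19 ATF6 and IRE1-XBP1 genes, 4 were higher and none was lower (median 0.05), beside 9.76% and 9.53% of all genes tested. CALR, the chaperone calreticulin, rose from 1849 to 2327 CPM (0.33, edgeR adjusted p = 0.00147, SE 0.0317), SEL1L, of the degradation machinery of the endoplasmic reticulum, by 0.19 (edgeR adjusted p = 0.0225), and CANX, calnexin, by 0.19 (edgeR adjusted p = 0.0238). HSPA5, the chaperone most used as a readout of this response, did not pass, at 1117 and 1109 CPM in Doxy(-) and 1155 and 1155 CPM in Doxy(+) (0.05, edgeR adjusted p = 0.202, SE 0.0253; a gene outside the naming rule, chosen after its value was seen). Of 6 mitochondrial chaperones and proteases, LONP1 was higher (0.29, edgeR adjusted p = 0.00895) and HSPD1 was lower (-0.12, edgeR adjusted p = 0.0297). DNAJA3 had -0.10 (edgeR adjusted p = 0.298).

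Some members also belong to other stress programs, GDF15 and SESN2 to that of p53 and DDIT4 to that of hypoxia. Among all genes tested, 9.76% were higher and 9.53% lower, and whether the small lists below differ from these shares was not tested. Of 9 tested p53 targets, 3 were higher and none was lower (median 0.21). CDKN1A, the cell cycle inhibitor p21, rose from 119.7 and 110.2 CPM to 232.5 and 218.7 CPM (0.97, edgeR adjusted p = 0.000283, SE 0.0553), ZMAT3 by 0.34 (edgeR adjusted p = 0.0113) and RRM2B by 0.39 (edgeR adjusted p = 0.047). The call of RRM2B was lost whichever library was left out (edgeR adjusted p from 0.0506 to 0.218). Of 8 NRF2 targets, 2 were higher and 1 was lower (median -0.02). HMOX1, heme oxygenase, rose from 41.95 and 40.64 CPM to 107.7 and 105.2 CPM (1.37, edgeR adjusted p = 8.05e-05, SE 0.052), OSGIN1 rose by 0.82 (edgeR adjusted p = 0.00278), and GCLM, a subunit of the glutathione-making enzyme, fell by 0.35 (edgeR adjusted p = 0.0107). Of 6 tested hypoxia targets, ADM, the peptide adrenomedullin, was higher (0.64, edgeR adjusted p = 0.0045, SE 0.0833). BNIP3 had 0.19 (edgeR adjusted p = 0.0553) and PDK1 0.25 (edgeR adjusted p = 0.112).

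DDIT3, GDF15, TRIB3 and DDIT4 kept this order of change under all 16 alternatives. DDIT3 stayed above 1, GDF15 between 0.77 and 0.88, TRIB3 between 0.37 and 0.53 and DDIT4 between 0.31 and 0.40. ATF5, SESN2 and ASNS did not pass under any of the 16 alternatives, nor did CHAC1.

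**Figure D5:**
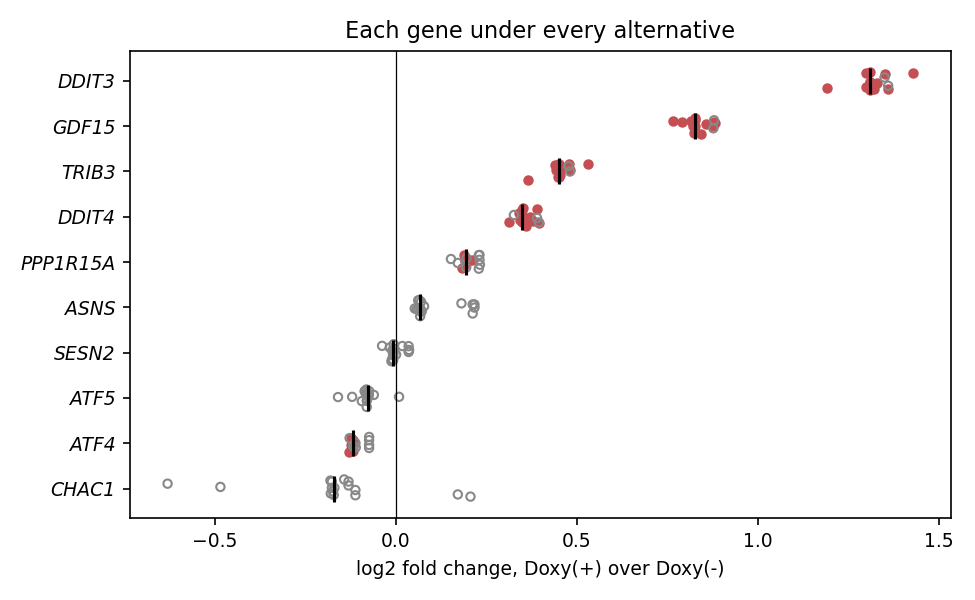
Log2 fold change of each gene (horizontal axis, Doxy(+) over Doxy(-)) under 16 alternatives (points, filled where the adjusted p was under 0.05) beside the value reported in the text (black bar). The points of DDIT3 run from 1.19 to 1.43 and those of GDF15 from 0.77 to 0.88, while those of CHAC1 run from -0.63 to 0.21 and none of them is filled.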

How the data were processed

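Polyadenylated RNA of 4 libraries (2 Doxy(-), 2 Doxy(+)) was sequenced by the authors. Per the labels, reads were trimmed with Trim Galore 0.6.6 and cutadapt 2.5 and aligned to hg38 with STAR 2.7.9a, and the study's methods name RSEM for quantification. The columns of the files have the names that kallisto writes, so which tool made these values is not settled. The deposited files hold estimated counts and TPM per transcript, not per gene. Single-end reads were assigned to transcripts by the quantifier, so forms and genes that share sequence divide reads by estimation.

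Transcripts were matched to GENCODE 44 by identifier (150691 of 180253 matched, 83.6%; the others were left out of library sizes, with 9.66% to 9.89% of counts), summed per gene and rounded to whole numbers. Genes were tested with edgeR 4.0.16 (R 4.3.3; filterByExpr, TMM, glmQLFit, glmQLFTest, group only), with Benjamini-Hochberg adjustment over 13569 genes. SE and 95% intervals follow from the quasi-likelihood F and its degrees of freedom. CPM use TMM-scaled library sizes. Limits were an adjusted p under 0.05 and, for both limits, an absolute log2 fold change above 1. The script was tested on simulated data.

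The 10 members and all lists were chosen with earlier results of these data known. Named genes were all members, TFE3, PRCC, the 4 eIF2 kinases, ATF3, the paralogs of members and, from each list, the 3 tested genes with the smallest p. Alternatives were RLE size factors, other low-count filters, DESeq2 1.42.0, limma 3.58.1 on log2(TPM + 1) and log2(TPM + 0.1), length-scaled counts, other treatment of unmatched identifiers, a replicate block, each library left out and, for counts, an adjusted p under 0.01. Limma with a trend was added after the data were seen. Libraries of a group differed by more than sampling noise (chi-square per degree of freedom 4.03 in Doxy(-) and 2.91 in Doxy(+)), so none was counted as a copy of another.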

Additional observations from a re-analysis of the deposited data

How the results depend on the processing

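Among the members, DDIT3, GDF15 and TRIB3 kept their direction and call under 14 of 16 alternatives, all but limma without a trend. DDIT4 kept its call under 13, ATF4 and PPP1R15A under 7. Many list genes were as sensitive. ALDH18A1 and SLC1A4 passed under 7 of 16, and DNAJC3, JDP2, MARS1, SLC7A1, CANX, SEL1L and HSPD1 under 8. GCN1, XPOT, KARS1, ZMAT3 and GCLM passed under 9, and ATF3 and LONP1 under 10. AARS1, PYCR1 and CALR passed under 14. Limma without a trend on log2(TPM + 1) gave 43 genes higher and 13 lower past both limits and on log2(TPM + 0.1) 11 and 3, beside 203 and 65 in the reported fit, and called 0 members higher, 0 lower and 0 past both limits. With a trend the counts were 117 and 32, and 134 and 34, with 0 members lower. Unmatched identifiers tested beside the genes gave 111 and 29, and an adjusted p under 0.01 gave 124 and 34, each with 0 members lower, as did length-scaled counts. Leaving out single libraries gave 3 to 5 members higher, 0 to 1 lower, 147 to 216 genes higher and 67 to 88 lower. The members' median log2 fold change (0.13) was 0.221 on log2(TPM + 1), 0.224 on log2(TPM + 0.1), 0.187 with length-scaled counts and 0.144 to 0.188 with single libraries left out. The cause of these shifts was not tested.

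Values near 0 changed sign. With single libraries left out, ATF5 ran from -0.16 to 0.00859 (above 0 without Doxy(-) 2), CHAC1 from -0.631 to 0.206 (above 0 without Doxy(-) 1 and, at 0.171, without Doxy(+) 1) and EIF2AK2 from -0.011 (without Doxy(-) 1) to 0.148. SESN2 was 0.0351 and 0.0361 in the 2 TPM scales, 0.000345 with length-scaled counts and -0.0382 to 0.0175 with single libraries left out (above 0 without Doxy(-) 1). EIF2AK4 was 0.0696 and 0.0727 in TPM, 0.0367 with length-scaled counts and -0.0237 to 0.00114 with single libraries left out (above 0 without Doxy(+) 2). PRCC was -0.15 and -0.153 in TPM, -0.186 with length-scaled counts and -0.0293 (without Doxy(+) 2) to 0.304 with single libraries left out. EIF2AK1 passed without Doxy(-) 1 (-0.173, edgeR adjusted p = 0.0386) and EIF2AK3 without Doxy(+) 2 (-0.576, edgeR adjusted p = 0.0313).

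Whether same-numbered libraries share more than a number is not given in the labels. The correlation of their deviations from the group means over 13569 genes was -0.0147. With 2 libraries a group, this value cannot show whether they shared a culture or a day. The replicate block gave 204 genes higher and 67 lower past both limits, 5 members higher and 0 lower, with ATF4 at an edgeR adjusted p of 0.0516. CHAC1 rests on few reads in every library, and every spread rests on 2 libraries a group.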
